A study of Mus musculus with 4 samples.

Results

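The regions described here are the PHF6 peaks of a mouse pre-B leukemia that stood tall without either modification of histone H3 lysine 27 that was mapped beside them. They were chosen by measured values: a PHF6 peak on chromosomes 1 to 19 was taken when its summit height was 28 or more and when it shared no base with an H3K27ac peak or an H3K27me3 peak. Summit height is the whole-number pileup that the peak caller gave at the highest point of a peak. The rule was met by 3558 peaks, which is 4.64% of the 76703 PHF6 peaks on these chromosomes, 6.71% of the 52993 PHF6 peaks without a mark and 21.1% of the 16889 PHF6 peaks of height 28 or more. The whole PHF6 list held 77749 peaks, the H3K27ac list 32388 and the H3K27me3 list 5616.

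The leukemia was of C57BL/6J origin, null for p19 and transformed by overexpression of BCR-ABL1, the fusion kinase of the Philadelphia chromosome. All 4 libraries carry this genotype. Antibodies to PHF6, H3K27ac and H3K27me3 gave 1 ChIP library each, and the fourth, input DNA, was not analysed here. No control genotype or second condition enters the regions below. Each antibody had 1 library, so none of the values has a replicate error and no p-value was computed. Shares carry exact (Clopper-Pearson) 95% intervals, which cover counting error only and treat neighbouring peaks as independent. Read totals are absent from the peak lists, and the depth is unknown. Positions are in build mm9, and neither a genome nor a gene annotation of that build was used, so sequences, genes and promoters at these peaks were not analysed here.

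PHF6 carries zinc fingers of the PHD type, is found in the nucleoplasm and the nucleolus and binds the NuRD chromatin remodelling complex. The gene is a recurrent target of mutation in T-cell acute lymphoblastic leukemia. Acetylation of H3 lysine 27 marks active promoters and enhancers, and trimethylation of the same residue is laid down by Polycomb repressive complex 2, so a PHF6 peak with neither mark lies outside the places these marks were called.

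Most of the 3558 peaks were only just tall. Their median height was 30, the quartiles were 28 and 32, and 1046 of them (29.4%) had a height of exactly 28. Another 716 stood at 29, 1093 at 30 to 32 and 548 at 33 to 39, which leaves 155 peaks (4.36%) of height 40 or more and 49 of height 60 or more. Just outside the threshold were 1324 unmarked PHF6 peaks of height 27. These had a median width of 1107 bp and a median score of 166, against 1128 bp and 177 at height 28, so the threshold cuts through a continuous range.

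The share of PHF6 peaks without a mark changed with height in both directions. At height 28 it was 46.9% (44.9 to 49.0) of 2228 peaks, and it was lower at each step up to 2.74% (1.82 to 3.97) of 984 peaks at 45 to 49. At 50 to 59 it was 4.24% (2.83 to 6.06) of 661 peaks, an interval that overlaps the one at 45 to 49. It was higher at 60 to 79, with 15.5% (10.3 to 22.1) of 161, and at 80 to 99, with 23.4% (12.3 to 38.0) of 47. These shares rest on 25 and 11 unmarked peaks, some of them neighbours in runs described below. Among the 119 PHF6 peaks of height 100 or more, 13 were unmarked (10.9%, 5.95 to 18.0). Height and the missing marks chose the peaks, so these shares are a description of the list.

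**Figure D1:**
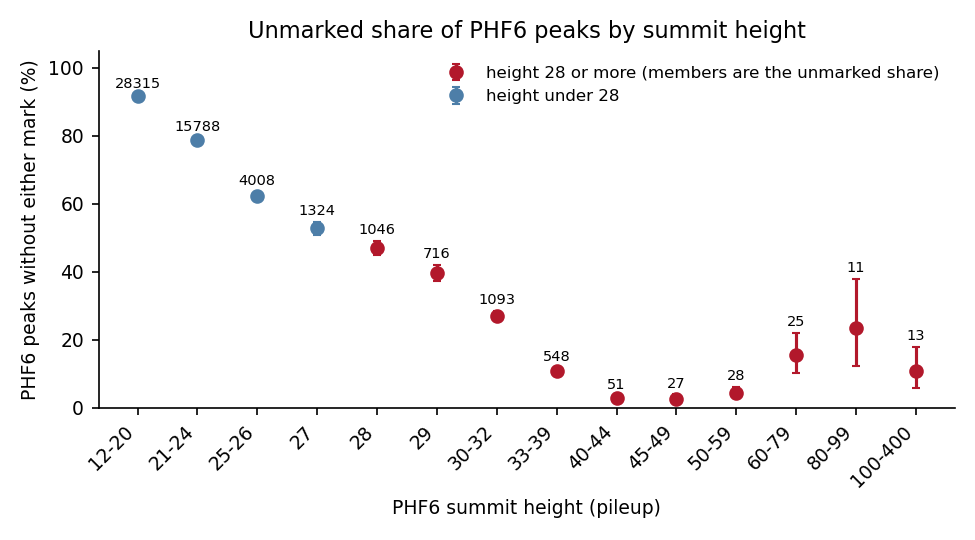
Share of PHF6 peaks on chromosomes 1 to 19 that overlapped neither mark (y axis, percent) by summit height (x axis, pileup), with exact 95% intervals; numbers above the points count the unmarked peaks, and red points, from height 28, are the peaks described here. The share is lowest at 45 to 49 (2.74%) and stands at 23.4% at 80 to 99.

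The tall unmarked peaks were intermediate in size between lower unmarked peaks and tall peaks with H3K27ac alone. Their median width was 1186 bp (quartiles 973 and 1670), against 942 bp (797 and 1190) for the 49435 unmarked PHF6 peaks under height 28, here called low unmarked peaks. The 12554 tall PHF6 peaks that overlapped H3K27ac alone were wider, with a median of 1683 bp (1288 and 2319). The score that the authors deposited with each peak, which reflects the caller's p-value, followed the same order, with medians of 193, 96.7 and 313 in these classes. The 9702 PHF6 peaks under height 28 with H3K27ac alone broke this order. Their median width of 1293 bp was above that of the tall unmarked peaks, and their median score of 148 was below it. Width and score come from the same library as the height and were not tested. Tall peaks with H3K27ac alone were also taller, with a median height of 34 (quartiles 30 and 40), against 30 (28 and 32) for tall unmarked peaks. The classes were not matched for height, so the part of height in the order of width and score was not tested. The summit lay near the middle of the peak in all these classes, at a median of 50.2% of the width in the tall unmarked peaks and 49.9% in the low unmarked peaks.

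Within the 3558 peaks Spearman's rho was 0.10 between height and score and 0.72 between score and width. Over all 76703 autosomal PHF6 peaks, which include low and marked ones, height and score gave 0.67. The rule cut the range of heights at 28 and left out marked peaks. The part of either in the lower rho was not tested. Of the peaks, 377 (10.6%) had a score under 100, and the tallest of these reached height 135. The 35 peaks with a score of 800 or more had a median height of only 31 and a median width of 4139 bp. These measures share 1 library, and the correlations are across peaks, which are not replicates.

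**Figure D2:**
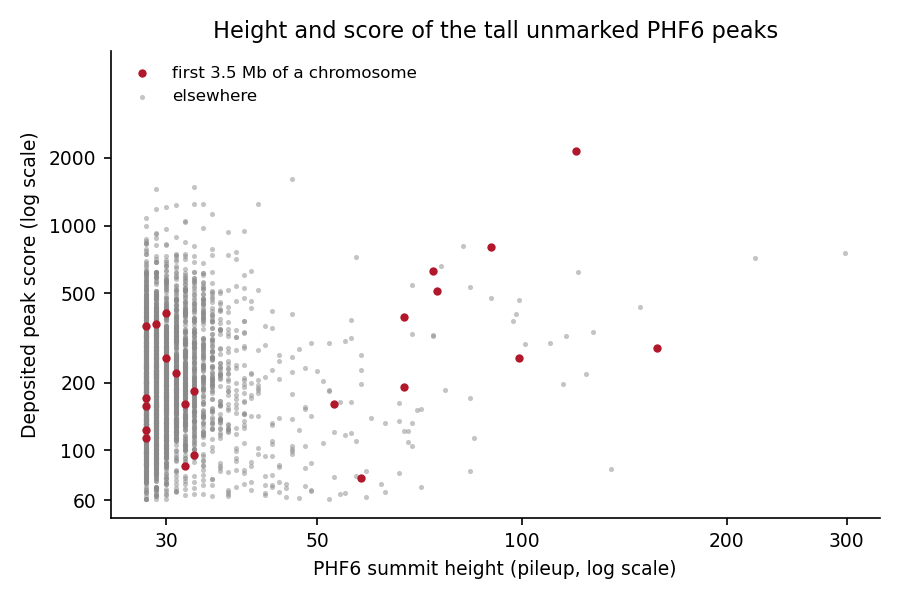
Deposited peak score (y axis, log scale) against summit height (x axis, pileup, log scale) for the 3558 tall unmarked PHF6 peaks, 1 point per peak; red points are the 23 peaks in the first 3.5 Mb of a chromosome. Scores at heights near 30 cover most of the range of all scores, and rho is 0.10 within this range of heights cut at 28.

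The first position measure was the distance to the nearest acetylated region, which the rule fixes only in so far as it is above 0. For tall unmarked peaks the median gap to the nearest H3K27ac peak was 13.2 kb (quartiles 3.85 and 46.9), and for low unmarked peaks 16.4 kb (5.03 and 53.1). Within 500 bp of such an edge were 178 tall unmarked peaks (5.003%, 4.31 to 5.77), against 3.34% (3.18 to 3.498) of low unmarked peaks. Within 5 kb were 1069 (30.045%, 28.5 to 31.6), against 24.9% (24.5 to 25.3). At the far end no such gap was seen: 528 tall unmarked peaks (14.8%, 13.7 to 16.1) and 15.1% (14.8 to 15.5) of low unmarked peaks were over 100 kb from acetylation, and these intervals overlap. Measured from summit to summit, which leaves the width of the peaks aside, the shares within 5 kb were 23.0% (21.7 to 24.5) for tall and 19.5% (19.1 to 19.9) for low unmarked peaks.

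Nearness to acetylation was not steadily related to height. It was 22.8% (22.3 to 23.3) within 5 kb for unmarked peaks of height 12 to 20 and 30.9% (29.5 to 32.3) for those of 25 to 26, both below the threshold. It was 29.7% (26.97 to 32.6) at height 28 and 32.8% (30.1 to 35.7) at 30 to 32. Among the 155 peaks of height 40 or more it was 19.4% (13.5 to 26.5), and 39 of these (25.2%, 18.5 to 32.8) were over 100 kb from any H3K27ac peak. The tallest unmarked peaks thus lay farther from acetylation, with a median of 32.7 kb, than those near the threshold. Not all of them are separate sites. Most peaks of a run of 11 on chromosome 7, described below, belong to this group. Their heights were 38 to 71 (median 46), and they lay 253 to 285 kb from H3K27ac. The intervals count each of them as independent. The shares and the median at height 40 or more were not recomputed without this run, so its part in them was not tested.

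The acetylated neighbour itself usually held PHF6. The H3K27ac peak nearest to a tall unmarked peak overlapped another PHF6 peak in 2912 of 3558 cases (81.8%, 80.5 to 83.1), and in 81.3% (80.9 to 81.6) of cases for low unmarked peaks. Among the 1069 tall unmarked peaks within 5 kb the count was 936 (87.6%, 85.4 to 89.5), and for low unmarked peaks within 5 kb the share was 86.1% (85.5 to 86.7), inside that interval. Of all 31732 autosomal H3K27ac peaks 72.2% (71.7 to 72.7) held PHF6. These neighbouring H3K27ac peaks had a median height of 26 (quartiles 19 and 93), and so did those within 5 kb of low unmarked peaks (26, 19 and 87). At the short extreme, a peak of height 29 on chromosome 3 at 90072038 to 90073589 (band qF1) ended 17 bp from an H3K27ac peak of height 373.

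H3K27me3 peaks were also somewhat nearer. They lay within 5 kb of 150 tall unmarked peaks (4.22%, 3.58 to 4.93), against 2.95% (2.80 to 3.10) of low unmarked peaks and 6.52% (6.10 to 6.97) of tall peaks with H3K27ac alone. The median distances were 129.8 kb, 142.2 kb and 89.04 kb in the same order. The closest case, on chromosome 5 at 140010951 to 140012144 (qG2, height 32), was 1 bp from an H3K27me3 peak of height 16. The H3K27me3 list is short, so most distances to it are long in all classes.

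**Figure D3:**
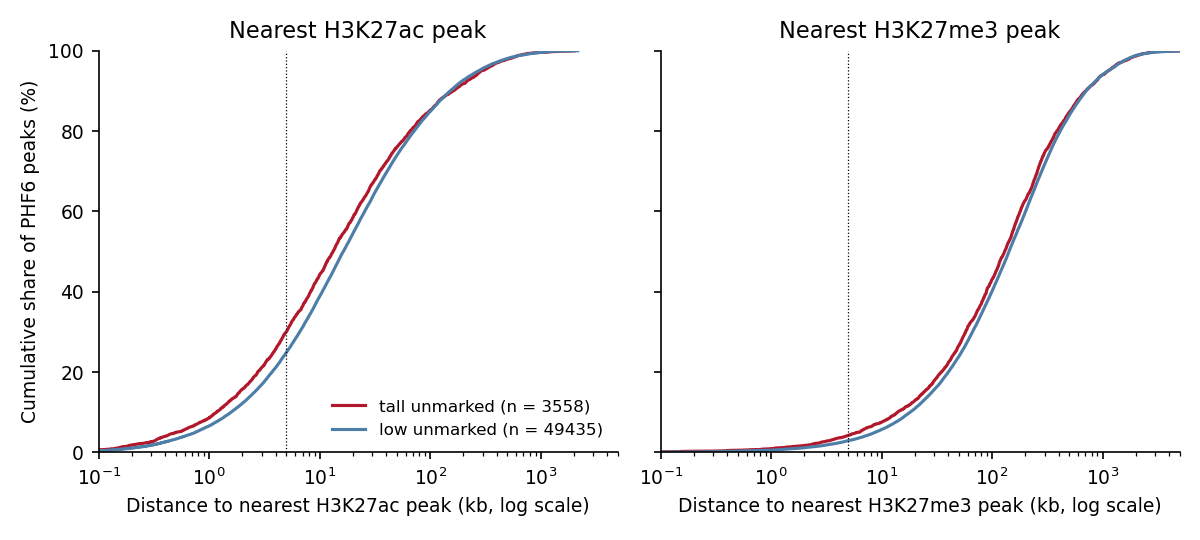
Cumulative share of peaks (y axis, percent) by distance to the nearest H3K27ac peak (left) and H3K27me3 peak (right), x axes in kb on a log scale, for the tall unmarked (red) and low unmarked (blue) PHF6 peaks; the dotted line marks 5 kb. The red curve runs above the blue one at 5 kb in both panels (30.045% and 24.9% for H3K27ac, 4.22% and 2.95% for H3K27me3) and meets it near 100 kb for H3K27ac.

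Tall unmarked peaks had PHF6 neighbours about as often as low ones. Another PHF6 peak lay within 5 kb of 2238 of them (62.9%, 61.3 to 64.5), against 61.5% (61.1 to 62.0) of low unmarked peaks, an overlapping interval, and 56.0% (55.2 to 56.9) of tall peaks with H3K27ac alone. The nearest PHF6 peak was a low unmarked one in 2385 cases (67.0%, 65.5 to 68.6), against 72.4% (72.0 to 72.8) for low unmarked peaks, and this class made up 64.4% of the autosomal list. It was a tall peak with H3K27ac alone in 519 cases (14.6%, 13.4 to 15.8), against 11.6% (11.3 to 11.9) for low unmarked peaks and 16.4% of the list. It was another tall unmarked peak in 246 cases (6.91%, 6.10 to 7.80), against 4.68% (4.50 to 4.87) for low unmarked peaks and 4.64% of the list. These cases include peaks of the runs and of the distal stretch of chromosome 16 described below, and the share was not recomputed without them.

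Runs of tall unmarked peaks were short. Joining them at gaps of up to 5 kb left 3207 single peaks and 155 runs with 351 peaks, of which 133 runs were pairs. The share within 5 kb of another tall unmarked peak was thus 9.87% (8.90 to 10.9). The longest run stood apart, with 11 peaks on chromosome 7 between 67013161 and 67047669 (band qC), a span of 34.5 kb. Every PHF6 peak called in that span was a tall unmarked one. Their heights ran from 38 to 71 with a median of 46, all well above the median of 30. Their scores ran only from 60.4 to 122 and their widths from 1044 to 2219 bp. The nearest H3K27ac peak was 253 to 285 kb away from each of them and the nearest H3K27me3 peak 900 to 934 kb. The only other runs of 5 were on chromosome 17 at 6438965 to 6458499, with heights of 28 to 39, and on chromosome 16 at 93799914 to 93813169, with heights of 28 to 30.

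The 10 tallest of the unmarked peaks differed widely in shape and setting. The first was on chromosome 8 at 19923683 to 19931170 (band qA1.3), with height 298, score 757 and a width of 7488 bp. It lay 29.3 kb from an H3K27ac peak of height 384. The second, on chromosome 7 at 12595480 to 12603731 (qA1, height 220), was isolated: 255 kb from H3K27ac, 788 kb from H3K27me3 and 110 kb from the next PHF6 peak. The third was on chromosome 17 at 3075255 to 3078212 (qA1, height 158), 611 bp from an H3K27ac peak of height 337 and 559 bp from an acetylated PHF6 peak of height 212. A like setting was seen on chromosome 10 at 57689620 to 57691837 (qB4, height 127), 409 bp from an acetylated PHF6 peak of height 175. That same acetylated peak had a second tall unmarked peak 462 bp away on its other side, at 57697365 to 57700694, with height 77.

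The other peaks among these 10 were between 698 and 10216 bp wide. On chromosome 6 at 49186117 to 49187075 (qB2.3, height 149) the peak was 959 bp wide and 6.81 kb from H3K27me3. On chromosome 16 at 18533125 to 18533822 (qA3, height 116) it was 698 bp wide. On chromosome 5 at 33075751 to 33085966 (qB1) a peak of height 135 and width 10216 bp had a score of only 82.4. It formed a pair with the peak at 33070970 to 33074140, of height 98 and score 405. The peaks on chromosome 19 at 58187253 to 58188569 (qD2, height 124) and on chromosome 8 at 14306550 to 14307736 (qA1.1, height 121) lay 66.2 and 170 kb from acetylation. The last, on chromosome 4 at 3005688 to 3013967 (qA1, height 120), had the highest score of all 3558 peaks, 2156. By its name the PHF6 list was made without the local background, and the input library was not analysed here. The heights of these 10 peaks thus cannot be read as PHF6 occupancy alone. The same limit holds for the longest run and for the peaks at the chromosome starts.

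Beside the chromosome 7 and 8 peaks above, the 5 tallest peaks over 100 kb from acetylation included chromosome 1 at 12647362 to 12648266 (qA3, height 82, score 807) and chromosome 11 at 18231506 to 18232643 (qA3.1, height 76, score 663). These were compact, at 905 and 1138 bp, and lay 332 and 291 kb from H3K27ac. The remaining one, on chromosome 16 at 3231412 to 3241742 (qA1, height 99), was the widest of all, at 10331 bp, and ended 104 bp from an H3K27me3 peak of height 19. Of the 5 tallest peaks that belonged to a run, the one not yet named or at a chromosome start was on chromosome 5 at 137632532 to 137634199 (qG2, height 110).

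Tall unmarked peaks at the starts of the chromosomes were few, and the tallest of them came from a few chromosomes. The first PHF6 peak of each autosome began between 2999904 and 3165630, so the first 3.5 Mb, a limit set after seeing the positions, hold only the first stretch with any call. Of 192 unmarked PHF6 peaks there, 23 were tall (11.98%, 7.75 to 17.4), against 6.69% (6.48 to 6.91) of 52801 elsewhere. Of these 23, 8 had a height of 60 or more, against 41 of the 3535 other tall unmarked peaks, and their median width was 2234 bp, against 1184 bp. On chromosome 17, 4 of them stood in a row from 3005751 to 3039068 with heights of 75, 67, 90 and 67. On chromosome 3, 3 stood between 2999904 and 3017472 with heights of 74, 32 and 58. The first of these was the farthest of all 3558 peaks from an H3K27ac peak, at 2050 kb. All 8 peaks of height 60 or more at chromosome starts lay on chromosomes 3, 4, 16 or 17, most of them on chromosome 17. The heights at chromosome starts were not compared with the input library.

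The tall unmarked peaks were spread over all 19 autosomes at 1.44 per Mb, from 0.599 per Mb on chromosome 13 (72 peaks) to 2.46 per Mb on chromosome 16 (242 peaks). Chromosome 16 stood apart by the share of its unmarked PHF6 peaks that were tall. This was 242 of 1771 (13.7%, 12.1 to 15.4), and on the other autosomes it lay between 4.45% on chromosome 13 and 8.20% on chromosome 19. Light cytogenetic bands, which are rich in genes, make up 41.2% of the autosomes. They held 51.3% (49.7 to 53.0) of tall unmarked peaks and 53.1% (52.6 to 53.5) of low unmarked peaks, and these intervals overlap. For tall peaks with H3K27ac alone the share was 50.9% (50.0 to 51.8). The darkest bands make up 31.2% of the autosomes. They held 20.5% (19.2 to 21.9) of the tall and 18.2% (17.8 to 18.5) of the low unmarked peaks. For tall peaks with H3K27ac alone this was 18.2% (17.6 to 18.9).

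**Figure D4:**
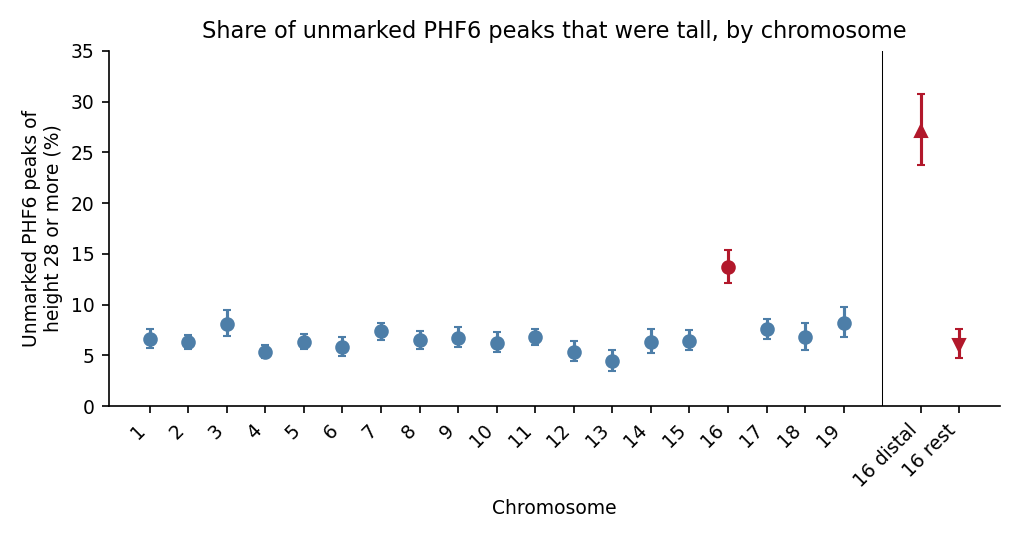
Share of unmarked PHF6 peaks with a height of 28 or more (y axis, percent) on each autosome, with exact 95% intervals; the symbols right of the line split chromosome 16 at 85 Mb into its distal and remaining stretch. Chromosome 16 is at 13.7%, its distal stretch at 27.1% and the rest of it at 6.02%.

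The surplus on chromosome 16 came from its distal end. From 85 Mb to the end of the chromosome, a boundary set after seeing the values on a 5-Mb grid, 13.3 Mb or 0.539% of the autosomes held 174 of the 3558 peaks (4.89%). Of 641 unmarked PHF6 peaks there, 27.1% (23.7 to 30.8) were tall, against 6.02% (4.70 to 7.57) of 1130 on the rest of chromosome 16 and 6.47% (6.26 to 6.69) of 51222 on the other autosomes. The window from 90 to 95 Mb alone held 135, more than any other 5-Mb window of the autosomes, the next having 51. By single megabases the tall share there peaked at 45.1% of 82 unmarked peaks between 93 and 94 Mb. Band qC4 of this chromosome held 125 tall unmarked peaks, 19.1 per Mb. The tallest in the distal stretch were on chromosome 16 at 93992134 to 93995298 (qC4, height 97), and in band qC3.3 at 91623037 to 91624491 (height 49) and at 91655080 to 91656968 (height 46).

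Other PHF6 values moved with it. PHF6 peaks with H3K27ac alone were also taller on distal chromosome 16, with a median height of 37 (quartiles 30 and 48, n = 142), against 29 (24 and 37, n = 524) on the rest of the chromosome and 29 (24 and 35, n = 21590) on the other autosomes. Unmarked PHF6 peaks had median heights of 24, 20 and 20 in the same order, and their density was 48.1, 13.3 and 21.6 per Mb. For the H3K27ac list the lower quartile of height was 26, 21 and 20 and the median 41, 36 and 35, while the upper quartile was 167, 203 and 173 and the 90th percentile 343, 320 and 312. The H3K27me3 list had medians of 16, 15 and 16. H3K27ac peaks numbered 15.9, 9.35 and 12.9 per Mb and H3K27me3 peaks 4.13, 1.87 and 2.18. The heights of acetylated PHF6 peaks and, apart from the upper quartile, those of H3K27ac peaks were thus also higher where the share of tall unmarked peaks was high, and their part in the result was not tested. The number of copies of this stretch in the cells was not tested either: the input library bears on it and was not analysed here, so the share of tall peaks cannot be read as PHF6 occupancy alone.

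**Figure D5:**
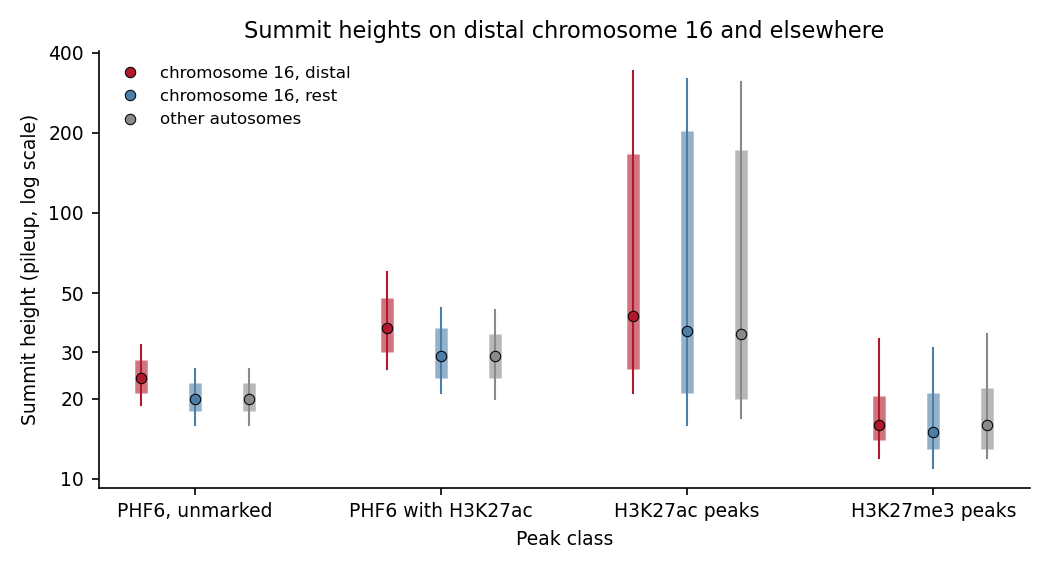
Summit heights (y axis, pileup, log scale) of 4 classes of peaks (x axis) on distal chromosome 16, the rest of that chromosome and the other autosomes; points are medians, thick bars quartiles and thin lines the 10th to 90th percentiles. Heights are comparable only within a class; PHF6 medians are 24 against 20 and 20 for unmarked peaks and 37 against 29 and 29 for peaks with H3K27ac.

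Apart from chromosome 16, few stretches had a high share of tall peaks. In the 422 windows of 5 Mb with 30 or more unmarked PHF6 peaks the median share was 6.25% (quartiles 4.31 and 8.56). The highest was 33.3% (20.4 to 48.4) of 48 peaks at 65 to 70 Mb of chromosome 7, which holds the run of 11 with its low scores. Next came 31.7% (18.1 to 48.1) of 41 peaks at 15 to 20 Mb of chromosome 8, where the tallest unmarked peak lies, and then the 31.2% (26.8 to 35.8) of 433 peaks at 90 to 95 Mb of chromosome 16. The first 2 windows rest on 16 and 13 tall peaks, the last on 135.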

How the data were processed

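Chromatin from 1 culture type was profiled with antibodies to PHF6, H3K27ac and H3K27me3, 1 library each. Bowtie2, SAMtools, MACS 1.4.0 and build mm9 are listed in the submitters' processing notes, without order or options. Column 5 of each deposited peak list is the authors' score per peak, with a smallest value of 60. Column 5 of each deposited summit list is a pileup signal (height) of at most 400. By their names the lists have a threshold of 1e-6, and all but the H3K27me3 list are marked as made without the local background, so heights were compared only within 1 list. The use of the input as a control is not stated.

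Peaks and summits were joined by name. A mark was present when at least 1 bp was shared. Distances run from edge to edge unless stated. Bands came from circlize 0.4.16 under R 4.3.3, and intervals from scipy 1.17.1 in Python 3.11.15, with pandas 2.3.3, numpy 2.4.6 and, for plots, matplotlib 3.10.9. The overlap and distance routines were checked against an exhaustive search on simulated intervals. Named regions were the 10 tallest peaks, the 5 tallest over 100 kb from H3K27ac, the 5 tallest in runs, and the nearest and farthest from a mark. The members, lists and comparisons were chosen with earlier results of these data known, and the chromosome 16 stretch, the longest run and the chromosome starts after seeing their values.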

Additional observations from a re-analysis of the deposited data

How the results depend on the processing

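Over 70 alternative values, 38 stayed within the counting interval of the reported one (within 1.5 times for the number of peaks) and 32 moved. Some settings fix the direction of a value in advance. A lower height limit can only add peaks, and a wider gap can only raise the share with a neighbour. The tally is thus a description and not a measure of robustness. With a height of 25 or more there were 8890 peaks, a median width of 1133 bp, a median score of 170, 13.5% over 100 kb from H3K27ac and 19.3% within 5 kb of another tall unmarked peak. With 32 or more there were 964 peaks, 1219 bp, a score of 210, 28.01% within 5 kb of H3K27ac and 5.08% of H3K27me3, 59.96% within 5 kb of a PHF6 peak and 7.16% of a tall unmarked one, and 48.1% in light bands. Counting a mark within 1 kb as present gave 23.4% within 5 kb of H3K27ac, 16.2% over 100 kb, 3.19% near H3K27me3, 59.5% near PHF6 and 8.76% near another tall unmarked peak. With scores of 100 or more in all lists, which also drops weak marks, there were 4431 peaks, 1290 bp, a score of 229, 26.4% within 5 kb of H3K27ac, 17.4% over 100 kb, 3.07% near H3K27me3, 53.1% near PHF6 and 12.1% near another tall unmarked peak. From summit to summit 23.0% and 3.32% lay within 5 kb of H3K27ac and H3K27me3, and with the wider neighbour gap 76.5% had a PHF6 neighbour.

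The low unmarked peaks were within 5 kb of H3K27ac less often than the tall ones under every one of these settings, with shares of 19.5% to 25.4%. At 32 or more the interval of the tall share (25.2 to 31.0) overlapped that of the low share (24.8 to 25.6). The share over 100 kb was below that of the low peaks at 25 or more (13.5% and 15.4%) and above it at 32 or more (15.4% and 15.1%) and without distal chromosome 16 (15.6% and 15.2%). Without chromosome 16 from 85 Mb, added after seeing the data, 8.81% lay near another tall unmarked peak, against 9.87% with it. The tall share on distal chromosome 16 was 45.9% at height 25 or more, 10.1% at 32 or more and 44.5% at scores of 100 or more, against 16.4%, 1.72% and 14.2% elsewhere. Gene positions and base composition were left out for want of an mm9 genome. No paired analysis was possible because there were no replicates. Unknown depth limits every statement on height.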
